A study of Mus musculus with 10 samples.

Results

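Regnase, Roquin and ZFP36 proteins are RNA-binding factors that shorten the life of messenger RNAs for cytokines and activation proteins. 8 genes were described across single arrays of mouse T helper cells: the Regnase genes Zc3h12a and Zc3h12d, the Roquin genes Rc3h1 and Rc3h2, the ZFP36 family genes Zfp36, Zfp36l1 and Zfp36l2, and Malt1, which encodes the paracaspase that cleaves Regnase-1 and the Roquins. They were chosen by symbol, among 22180 genes with a probe set assigned to exactly 1 symbol. Where a gene had several such probe sets, the one with the highest mean over all 10 arrays stood for it. Of the 8 genes, 7 had a single usable probe set and Zfp36l1 had 2, so every one of the 8 was measured.

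The cells were CD4+ lymphocytes from spleens of wild-type female Balb/c mice aged 10 to 14 weeks. Cultures of all groups received antibodies against CD3 at 4 µg/ml and against CD28 at 30 ng/ml, which engage the T cell receptor and a costimulatory receptor. Th0 cultures (n = 3) served as the control. IL-4 at 100 ng/ml was added to make Th2 cultures (n = 3). Th17 cultures (n = 4) were given 20 ng/ml IL-6, 5 ng/ml TGFβ and 10 ng/ml IL-23. Both polarised groups, but not Th0, received an antibody against IFNγ at 10 µg/ml, so its part in a difference from Th0 cannot be told apart from that of the cytokines. Medium was replaced at 72 h, and when the cells were harvested is not stated in the labels used here. Replicates are called biological in the titles, with no word on whether animals differed, so each p-value reflects only how far these samples spread. Th2 replicate 3 has the number 4 in its description, and the number of its title was used. Values were log2 array intensities of bulk samples, in which fewer cells of a type and less RNA per cell cannot be told apart. They are mRNA levels and hold no information on protein, cleavage or decay rates.

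Regnase-1, encoded by Zc3h12a, is an endoribonuclease that cuts stem-loops in the untranslated tail of its target mRNAs. The Roquins bind similar stem-loops and recruit the CCR4-NOT deadenylase, and ZFP36 proteins bind AU-rich elements and recruit the same complex. Stimulation of the T cell receptor activates MALT1, and the protease then cleaves Regnase-1 and the Roquins, which lets their targets accumulate in activated T cells.

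Promoter sequences were looked up by symbol in a RefSeq table (GRCm38.p6), and 6 of the 8 genes were matched on the chromosomes used here. Each stretch held the 250 bases before the annotated start and was searched on both strands for 4 motifs bound by factors downstream of T cell receptor and cytokine signalling. These were AP-1 (TGANTCA), STAT (TTCNNNGAA), EGR (GCGGGGGCG) and the kB motif of NF-κB. The 3 promoters that held a match are printed 5′ to 3′ in the direction of transcription, with the match in capitals, to show which of these letters each promoter holds and how near the start. Zfp36 lies on the minus strand (chr7:28379229-28379478), Zfp36l1 on the minus strand (chr12:80113014-80113263) and Rc3h1 on the plus strand (chr1:160906161-160906410).
Zfp36: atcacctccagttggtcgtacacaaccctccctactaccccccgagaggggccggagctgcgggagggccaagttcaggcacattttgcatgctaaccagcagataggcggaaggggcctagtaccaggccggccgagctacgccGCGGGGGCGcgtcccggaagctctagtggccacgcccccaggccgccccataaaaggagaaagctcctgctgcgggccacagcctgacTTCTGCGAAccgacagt
Zfp36l1: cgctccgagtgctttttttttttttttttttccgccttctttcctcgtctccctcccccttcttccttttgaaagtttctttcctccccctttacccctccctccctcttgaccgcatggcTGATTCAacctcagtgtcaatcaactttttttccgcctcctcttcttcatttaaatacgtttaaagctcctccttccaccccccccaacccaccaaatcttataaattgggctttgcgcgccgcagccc
Rc3h1: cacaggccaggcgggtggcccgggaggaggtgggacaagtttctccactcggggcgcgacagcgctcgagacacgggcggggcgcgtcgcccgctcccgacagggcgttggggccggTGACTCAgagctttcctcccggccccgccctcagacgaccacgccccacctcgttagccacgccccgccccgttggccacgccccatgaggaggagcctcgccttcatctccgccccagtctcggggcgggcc
In Zfp36 the EGR match lay 105 to 97 bases and the STAT match TTCTGCGAA 17 to 9 bases before the start. An AP-1 match lay 129 to 123 bases before the start of Zfp36l1 (TGATTCA) and 133 to 127 bases before that of Rc3h1 (TGACTCA). Among 32851 promoters of the same length, 6.75% held the AP-1 motif, 7.02% the STAT motif, 2.57% the EGR motif and 4.65% the kB motif. This form of the kB motif was in 0 of the 6 promoters, and other forms were not searched. A match describes letters in the window and is no measurement of binding.

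Arrays of a group were not alike. On the first principal component, which held 35.8% of the variance, Th2 replicates 2 and 3 and Th17 replicate 4 scored 37.5 to 55.8 and the other 7 arrays -0.96 or below. The mean of 9 measured T cell identity genes was 8.16 to 8.26 on these 3 arrays and 8.62 to 9.18 on the other 7. Over all arrays Cd3e was at 9.36 to 10.44 and Cd4 at 7.09 to 8.76. Not every gene of the list followed that mean. Zap70 was 8.64, 8.16 and 7.08 on Th2 replicates 2 and 3 and Th17 replicate 4, and 7.46 to 8.24 on the other 7. For 9 myeloid markers the mean was 4.54 on Th17 replicate 1 and 3.26 to 3.67 on the other arrays. On Th17 replicate 1, S100a8 (7.16), S100a9 (6.52), Lyz2 (5.43) and Cd68 (5.78) were at their highest of all arrays. Adgre1 (2.89) was at its lowest there, and Cd14 (2.76), Csf1r (3.33) and Itgam (3.22) lay within the range of the other arrays. The mean of 9 basophil and mast cell markers was 3.43 to 7.07 in Th0, 3.29 to 4.27 in Th2 and 3.41 to 5.99 in Th17. It was highest on Th0 replicate 1 and Th17 replicates 2 and 3, but not for each gene. Prss34 was 6.06, 3.73 and 4.00 and Hdc 5.14, 3.31 and 3.46 on these arrays, and Kit was 4.78 to 5.07 on all Th17 arrays. As a check added after the data were seen, differences were recomputed without either set of arrays, and larger moves are given beside the result or, for changes of sign, among the limits at the end. The part of these differences between arrays in the results was not tested.

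In no comparison did any of the 8 genes pass limma's moderated test at an adjusted p under 0.05 (Benjamini-Hochberg over all genes). The background was also sparse, with 0% of all genes called in Th2 minus Th0, 0.104% in Th17 minus Th0 and 0.0766% in Th17 minus Th2. At an unadjusted p under 0.05, 2 of 8 members were higher in each comparison, beside 6.34%, 5.17% and 6.25% of all genes in either direction. These were Rc3h1 and Zfp36l1 in Th2 against Th0, Zc3h12a and Malt1 in Th17 against Th0, and Zc3h12d and Malt1 in Th17 against Th2. Groups did not overlap for 1 of 8 members in Th2 against Th0 (Zfp36), for 2 in Th17 against Th0 (Rc3h1 and Malt1) and for 1 in Th17 against Th2 (Malt1), each of them higher in the group named first. Of all genes, 8.43%, 7.57% and 5.6% did not overlap in the same comparisons.

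Most members had higher means in both polarised groups than in Th0. The difference was above 0 for 7 of 8 members in Th2 and for 8 of 8 in Th17, with median log2 differences of 0.47 and 0.38. Over all genes 47.7% and 46.8% of the differences were above 0, with medians of -0.01 and -0.02. Among the 6250 genes with a mean of at least 5 over the arrays, 45.1% and 48.5% were above 0. Both comparisons use the same 3 Th0 arrays and so are not independent. Without the arrays apart, Th2 minus Th0 was above 0 for 6 of 8 members with a median of 0.098 and Th17 minus Th0 for 8 of 8 with a median of 0.61. Without the arrays with the most basophil and mast cell marker signal, the counts were 6 of 8 and 5 of 8, with medians of 0.36 and 0.20. Between Th17 and Th2, 4 members had the higher mean in each, and the median difference was -0.02. Without the arrays apart, which leaves a single Th2 array, 7 of 8 members were higher in Th17, with a median of 0.26.

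**Figure D1:**
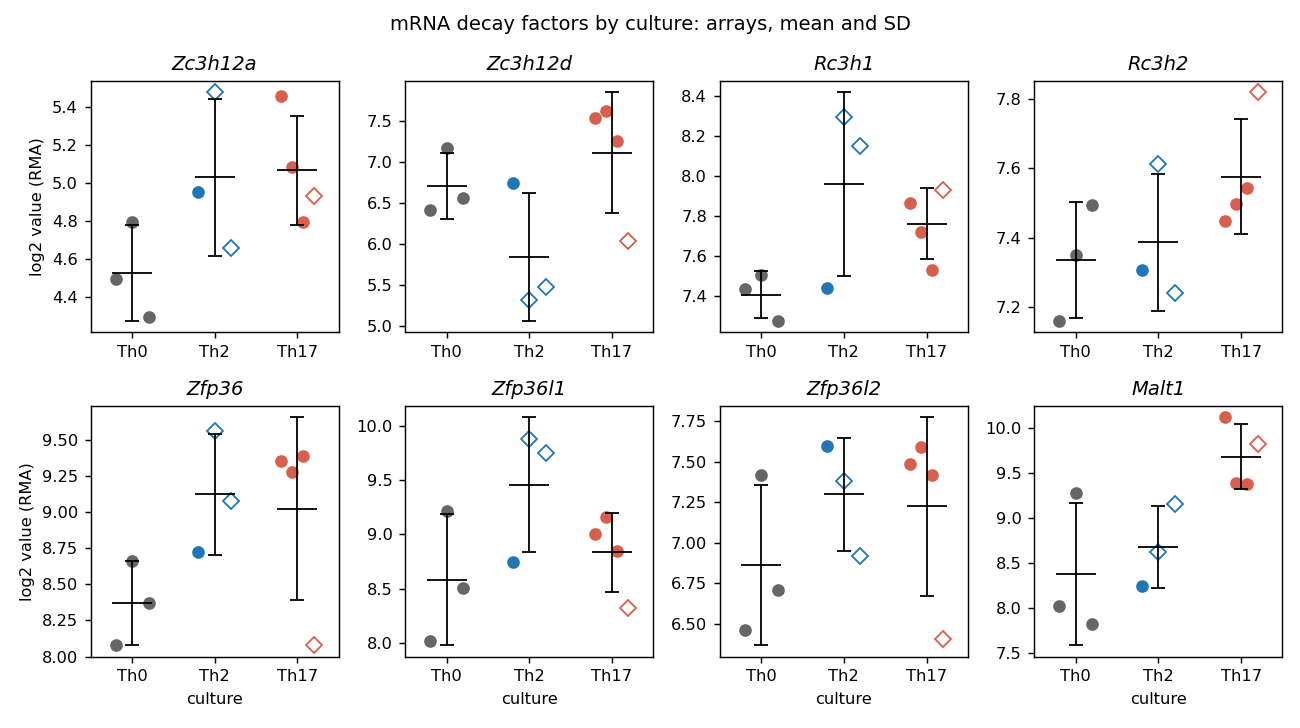
Log2 RMA value of each decay factor gene (vertical axis, 1 panel per gene with its own scale) in Th0 (grey), Th2 (blue) and Th17 (red) cultures; points are single arrays, open diamonds the 3 arrays apart on the first principal component, and bars the mean and SD (n = 3, 3 and 4). The Malt1 values of Th17 (9.38 to 10.12) lie above those of Th0 and Th2, and the open diamonds hold the lowest Zc3h12d values (5.33 to 6.04).

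Malt1 showed the largest difference of the 8 genes. It encodes the paracaspase that links antigen receptor signalling to NF-κB and to the cleavage of Regnase-1. Its log2 value was 8.02, 9.28 and 7.82 on Th0 replicates 1 to 3, and 8.25, 8.62 and 9.15 on Th2 replicates 1 to 3. On Th17 replicates 1 to 4 it was 10.12, 9.39, 9.38 and 9.82. All Th17 arrays were above all Th0 and Th2 arrays, with Th0 replicate 2 the closest to them. Th17 replicate 1, with the highest Malt1 value, also had the highest myeloid marker mean, 4.54, whose part was not tested. The group means were 8.37 ± 0.79 (SD, n = 3) in Th0, 8.67 ± 0.45 (SD, n = 3) in Th2 and 9.68 ± 0.36 (SD, n = 4) in Th17.

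Malt1 was 2.47-fold higher in Th17 than in Th0 (log2 difference 1.3, SE 0.35, 95% interval 0.53 to 2.07). Its limma p of 0.00334 was the 143rd smallest of all genes in that comparison, and the adjusted p was 0.516. Against Th2 it was 2.01-fold higher in Th17 (log2 difference 1.00, SE 0.35, 95% interval 0.23 to 1.77, limma p 0.0152, adjusted p 0.650). The means of Th2 and Th0 differed by 0.30 (SE 0.37, 95% interval -0.52 to 1.12, adjusted p 0.920 by limma), so these neighbours did not differ beyond their spread. That difference was -0.12 without the arrays apart. Over 20 alternative settings the Th17 minus Th0 difference ran from 1.03 to 1.76 and its adjusted p was 0.132 or more. It was 1.25 without the 3 arrays apart and 1.42 without the 3 arrays with the most basophil and mast cell marker signal.

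Of the Regnase genes, Zc3h12a had higher means in both polarised groups. Its values were 4.49, 4.79 and 4.29 in Th0, 4.95, 5.48 and 4.66 in Th2, and 5.46, 5.09, 4.79 and 4.93 in Th17. The Th0 array with the highest value, replicate 2, lay within the range of both other groups. The means were 4.53 ± 0.25 (SD, n = 3), 5.03 ± 0.42 (SD, n = 3) and 5.07 ± 0.29 (SD, n = 4). Th17 exceeded Th0 by 0.54 (SE 0.23, 95% interval 0.04 to 1.04, limma p 0.0358, adjusted p 0.928) and Th2 exceeded it by 0.51 (SE 0.24, 95% interval -0.03 to 1.04, adjusted p 0.794 by limma). The Th2 and Th17 means were 0.04 apart (95% interval -0.46 to 0.54).

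Zc3h12d encodes Regnase-4, a relative with the same kind of ribonuclease domain that is known from lymphocytes. It followed the 3 arrays apart more than the groups. Its values were 6.41, 7.17 and 6.56 in Th0, 6.75, 5.33 and 5.48 in Th2, and 7.54, 7.62, 7.25 and 6.04 in Th17. The low values were those of Th2 replicates 2 and 3 and of Th17 replicate 4, at 5.33 to 6.04 against 6.41 to 7.62 on the other 7 arrays. The means were 6.72 ± 0.40 (SD, n = 3) in Th0, 5.85 ± 0.78 (SD, n = 3) in Th2 and 7.11 ± 0.74 (SD, n = 4) in Th17. Its pooled SD within groups, 0.673, was the highest of the 8 genes, against a median of 0.257 over all genes.

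Zc3h12d was 2.40-fold higher in Th17 than in Th2 (log2 difference 1.27, SE 0.43, 95% interval 0.33 to 2.20, limma p 0.0128, adjusted p 0.629), with overlapping values. With arrays weighted in limma by how closely they fit their group means, the difference was 1.75 (adjusted p 0.0342), and 330 genes were called instead of 17. Of all arrays, Th2 replicate 2, an array apart, then had the highest weight (2.25) and Th2 replicate 1, not apart, the lowest (0.43). Without the 3 arrays apart, which leaves a single Th2 array, Th17 minus Th2 was 0.73. The Th2 minus Th0 difference was -0.87 (SE 0.46, 95% interval -1.87 to 0.14) over all arrays and 0.03 without those arrays. Th17 and Th0 differed by 0.40 (SE 0.43, adjusted p 0.999 by limma), by 0.76 without the arrays apart and by -0.08 without those with the most basophil and mast cell marker signal.

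Rc3h1 encodes Roquin-1, whose mutation in mice can lead to an excess of follicular helper T cells. Its values were 7.44, 7.51 and 7.28 in Th0, 7.44, 8.29 and 8.15 in Th2, and 7.87, 7.72, 7.53 and 7.93 in Th17. All Th17 arrays lay above the Th0 arrays, while Th2 replicate 1 lay among them and Th2 replicates 2 and 3 were the highest of all. The 3 arrays apart held the 3 highest values, 7.93 to 8.29 against 7.28 to 7.87 on the others. This is the reverse of Zc3h12d, which was lowest on the same arrays. The means were 7.41 ± 0.12 (SD, n = 3), 7.96 ± 0.46 (SD, n = 3) and 7.76 ± 0.18 (SD, n = 4).

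Rc3h1 differed between Th2 and Th0 by 0.55 (SE 0.22, 95% interval 0.07 to 1.03, limma p 0.0276, adjusted p 0.767). Without Th2 replicate 1, which leaves only arrays apart in Th2, the difference was 0.81 with an adjusted p of 0.0456 in limma. In that setting 431 genes were called instead of 0. Without the 3 arrays apart, which leaves Th2 replicate 1 alone, the difference was 0.03. The Th17 minus Th0 difference was 0.35 (SE 0.20, 95% interval -0.09 to 0.80, adjusted p 0.999 by limma) and stayed between 0.29 and 0.51 over 20 settings. Th17 minus Th2 was -0.20 (SE 0.20, adjusted p 0.953 by limma).

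Rc3h2, the gene of the paralogue Roquin-2, varied least, with a pooled SD within groups of 0.176. It ran from 7.16 to 7.49 in Th0, from 7.24 to 7.61 in Th2 and from 7.45 to 7.82 in Th17. The means were 7.33 ± 0.17, 7.39 ± 0.20 and 7.58 ± 0.17 (SD, n = 3, 3 and 4). The limma differences were 0.05 for Th2 minus Th0 (95% interval -0.32 to 0.42), 0.24 for Th17 minus Th0 (-0.10 to 0.58) and 0.19 for Th17 minus Th2 (-0.15 to 0.53), and each interval included 0.

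**Figure D2:**
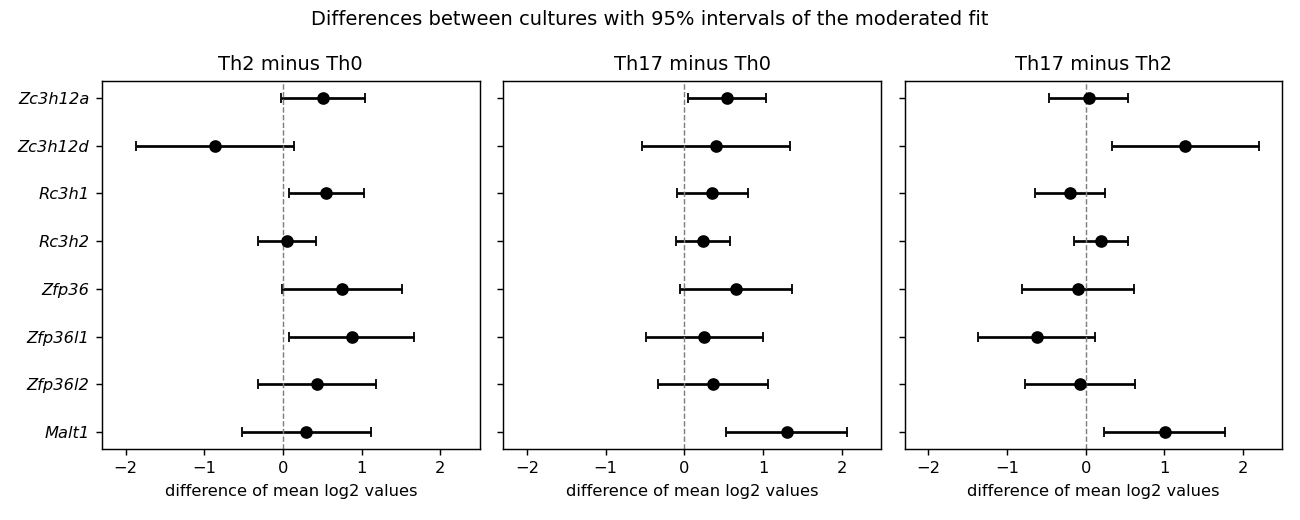
Differences of mean log2 values between cultures (horizontal axis) for the 8 decay factor genes in 3 comparisons, with points for the limma estimate and bars for its 95% interval. The intervals of Malt1 lie above 0 in both Th17 comparisons (0.53 to 2.07 and 0.23 to 1.77), and no gene passed the adjusted test.

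Zfp36 encodes tristetraprolin, the AU-rich element binding protein that destabilises Tnf and other cytokine mRNAs and is itself induced early after stimulation. Its values were 8.08, 8.66 and 8.37 in Th0, 8.73, 9.56 and 9.08 in Th2, and 9.35, 9.28, 9.39 and 8.08 in Th17. All Th2 arrays and 3 of 4 Th17 arrays were above every Th0 array. The exception was Th17 replicate 4, which was at the level of the lowest Th0 array. The means were 8.37 ± 0.29 (SD, n = 3), 9.12 ± 0.42 (SD, n = 3) and 9.02 ± 0.63 (SD, n = 4).

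Zfp36 exceeded Th0 by 0.75 in Th2 (SE 0.35, 95% interval -0.01 to 1.51, limma p 0.0533, adjusted p 0.792) and by 0.65 in Th17 (SE 0.32, 95% interval -0.06 to 1.36, limma p 0.0692, adjusted p 0.994). Without the 3 arrays apart, the Th17 difference was 0.97 with an adjusted p of 0.0962 in limma, and the difference of the remaining Th2 array was 0.35. Without the arrays with the most basophil and mast cell marker signal, the Th17 difference was 0.20 (limma p 0.663). Th17 minus Th2 was -0.10 (SE 0.32, 95% interval -0.81 to 0.62), and 0.61 without the arrays apart.

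Zfp36l1 encodes BRF1, a paralogue of tristetraprolin that acts in lymphocyte development. Its values were 8.02, 9.22 and 8.51 in Th0, 8.74, 9.88 and 9.75 in Th2, and 9.01, 9.16, 8.85 and 8.33 in Th17. Th2 replicates 2 and 3 were above all other arrays, and Th2 replicate 1 lay inside the Th0 range. The means were 8.58 ± 0.60 (SD, n = 3), 9.46 ± 0.62 (SD, n = 3) and 8.83 ± 0.36 (SD, n = 4). Th2 exceeded Th0 by 0.88 (SE 0.36, 95% interval 0.08 to 1.67, limma p 0.0334, adjusted p 0.767), and by 0.16 without the arrays apart. Th17 differed from Th0 by 0.25 (SE 0.34) and from Th2 by -0.62 (SE 0.34, 95% interval -1.37 to 0.12). The other probe set of the gene gave 0.77, 0.21 and -0.56 in the same order of comparisons.

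Zfp36l2 encodes BRF2, which with BRF1 restrains proliferation of developing lymphocytes. Its values were 6.46, 7.42 and 6.71 in Th0, 7.60, 7.38 and 6.91 in Th2, and 7.49, 7.59, 7.42 and 6.40 in Th17. As with Zfp36, Th17 replicate 4 was the lowest array of its group and of all 10. The means were 6.86 ± 0.50 (SD, n = 3), 7.30 ± 0.35 (SD, n = 3) and 7.22 ± 0.55 (SD, n = 4). Differences were 0.44 (95% interval -0.31 to 1.19) for Th2 minus Th0, 0.36 (-0.34 to 1.06) for Th17 minus Th0 and -0.07 (-0.77 to 0.63) for Th17 minus Th2 in limma, and each interval included 0. Without the arrays apart the differences from Th0 were 0.74 and 0.64, and without those with the most basophil and mast cell marker signal they were 0.24 and -0.12.

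**Figure D3:**
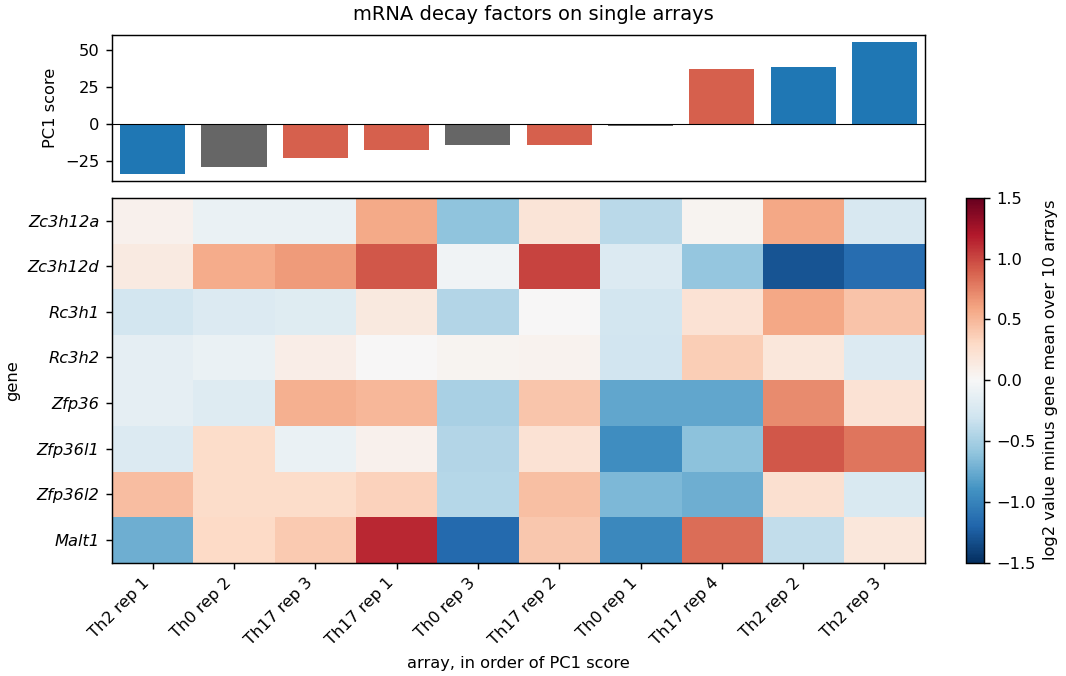
Top, score of each array on the first principal component, with bars grey for Th0, blue for Th2 and red for Th17; bottom, log2 value of each decay factor gene minus its mean over the 10 arrays (colour scale), with arrays in the order of the score. On the 3 right-hand arrays, with scores of 37.5 to 55.8, Zc3h12d is at its lowest (5.33 to 6.04) and Rc3h1 at its highest (7.93 to 8.29).

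Correlations between the 8 genes were taken over the 7 arrays that were not apart (3 Th0, 1 Th2 and 3 Th17), since all 10 fall into separate clusters. Over these arrays Pearson's r was above 0 in 28 of 28 pairs, with a median of 0.77 and a range of 0.23 to 0.94. Over all pairs of the 6250 genes with a mean of at least 5, r was above 0 in 59.4% and the median r was 0.12. Of these pairs, 5.29% had an r above the members' median. In two-sided exact permutation tests 16 pairs had p under 0.05 and 6 an adjusted p of 0.0444 (Benjamini-Hochberg over the 28 pairs). These were Malt1 with Rc3h1 (r 0.90, rho 1) and Zc3h12d (r 0.94, rho 0.93), Rc3h1 with Zc3h12a (r 0.92, rho 0.86) and Zc3h12d (r 0.86, rho 0.93), and Zc3h12d with Zfp36 (r 0.91, rho 0.82) and Zfp36l1 (r 0.86, rho 0.79). By Spearman's rho, only Malt1 with Rc3h1 passed (exact permutation p 0.000397, adjusted p 0.0111).

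Pooled over all 10 arrays, r was above 0 in 24 pairs and below 0 in 4, with a median of 0.37 beside 0.17 over all gene pairs. There 5 pairs had a permutation p under 0.05 and 0 passed the adjustment (lowest adjusted p 0.165), and Zc3h12d with Rc3h1 gave r -0.57. Of the 6 pairs, Zc3h12d with Zfp36l1 was also below 0 there (r -0.28), and the remaining ones ran from 0.14 to 0.63. With the 2 arrays farthest from the median of the first gene left out, r of the 6 pairs was 0.62 to 0.87 over 5 arrays. Of all 28 pairs, 23 were then above 0, with a median of 0.69. The lowest was Rc3h2 with Zfp36l1, at -0.55. An exact permutation p over 5 arrays cannot go below 0.00833, so at least 5 pairs would need that value to pass the adjustment, and the 0 pairs that did say nothing of stability. Th0 replicate 1 held the lowest value of the 7 arrays for Zc3h12d, Rc3h2, Zfp36, Zfp36l1 and Zfp36l2, and also the highest basophil and mast cell marker level, 7.07. The part of those markers was not tested, and since the arrays come from 3 groups, r holds differences between groups as well as within them. The arrays apart form a cluster of 3, too few for a correlation of their own.

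Per member, the 3 genes with the most similar values over the 10 arrays were listed by Pearson's r, among 2030 named genes with an SD of at least 0.5. These values share the arrays' overall differences, so they describe these 10 arrays and carry no test. Over the 7 arrays not apart, r of these pairs ran from 0.54 to 0.98, lowest for Mapkbp1 with Rc3h2. Malt1 was most like Il21, the gene of a cytokine made by Th17 and follicular helper cells, with r 0.96. The others nearest to it were Adarb1 (r 0.94) and Smox (r 0.91). Zc3h12d was closest to Ctsa (r 0.98), Sema4d (r 0.98) and Runx3 (r 0.98), of which Runx3 is a transcription factor of T cell lineage choice. Rc3h1 was closest to the histone demethylase gene Kdm6b (r 0.97), the early activation marker gene Cd69 (r 0.97) and Zswim4 (r 0.96). Zc3h12a was closest to Atp10d (r 0.95), Rrp1b (r 0.91) and Tnfaip3 (r 0.88), the gene of the ubiquitin-editing protein A20.

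Of the ZFP36 family, Zfp36 and Zfp36l2 shared 1 neighbour among their first 3, Btg2, which encodes an antiproliferative protein that binds the CCR4-NOT complex (r 0.87 and 0.89). Zfp36 was otherwise closest to Thada (r 0.87) and Usp36 (r 0.82), and Zfp36l2 to Znrf2 (r 0.94) and Stt3b (r 0.85). Zfp36l1 was closest to Ppan (r 0.92), to the kinase gene Pim1 (r 0.92) and to M6pr (r 0.89). Rc3h2, the least variable member, had the loosest neighbours: Gnb4 (r 0.85), its fellow CCCH zinc finger gene Zc3h12c (r 0.81) and Mapkbp1 (r 0.80). Over the 7 arrays not apart these were 0.80, 0.64 and 0.54.

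Other genes of mRNA decay were taken from lists. 101 of 111 list genes were measured, and 0 were called in any comparison by limma at an adjusted p under 0.05. Of 11 measured targets reported for Regnase-1 and Roquin, 6 were higher in Th2 than in Th0 at an unadjusted p under 0.05, against 6.34% of all genes in either direction. Their median difference was 0.70, beside -0.01 over all genes. The 6 were Tnf, Il2, Rel, Nfkbid, Nfkbiz and Irf4, which encode cytokines and transcriptional regulators of activated T cells. Without the arrays apart 1 of 11 was higher (median 0.24, beside 4.60% of all genes in either direction), and without those with the most basophil and mast cell marker signal 4 were (median 0.53, beside 3.33%). In Th17 against Th0 the same list had 1 higher (Il2) and 1 lower (Tnfrsf4) with a median of 0.31 (Tnfrsf4 -0.60, and -0.31 without the arrays with the most basophil and mast cell marker signal), and in Th17 against Th2 it had 2 lower (Tnf and Rel) with a median of -0.39. With the arrays apart left out 0 were lower there, and Tnf and Rel differed by -0.15 and -0.03.

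Tnf, also a target of the ZFP36 family, measured 8.05, 8.08 and 8.41 in Th0, 8.80, 10.35 and 10.35 in Th2, and 8.54, 8.77, 8.64 and 9.09 in Th17. All Th2 and Th17 arrays exceeded the Th0 arrays, and Th2 replicates 2 and 3 exceeded the rest by more than 1 log2 unit. Th2 minus Th0 was 1.65 (SE 0.36, limma p 0.000764, adjusted p 0.767), and 0.61 without the arrays apart. Without Th2 replicate 1, which leaves only arrays apart in Th2, it was 2.16 with an adjusted p of 0.0111 in limma. In that setting 431 genes were called instead of 0. Rel, which encodes the NF-κB subunit c-Rel, measured 7.68, 7.28 and 7.52 in Th0, 7.50, 8.97 and 8.69 in Th2, and 7.46, 7.58, 7.37 and 7.65 in Th17. Its high values were those of Th2 replicates 2 and 3 alone. Th17 replicate 4, the third array apart, was not high in Rel, and the Th2 minus Th0 difference of 0.89 (adjusted p 0.767 by limma) was 0.01 without the arrays apart.

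**Figure D4:**
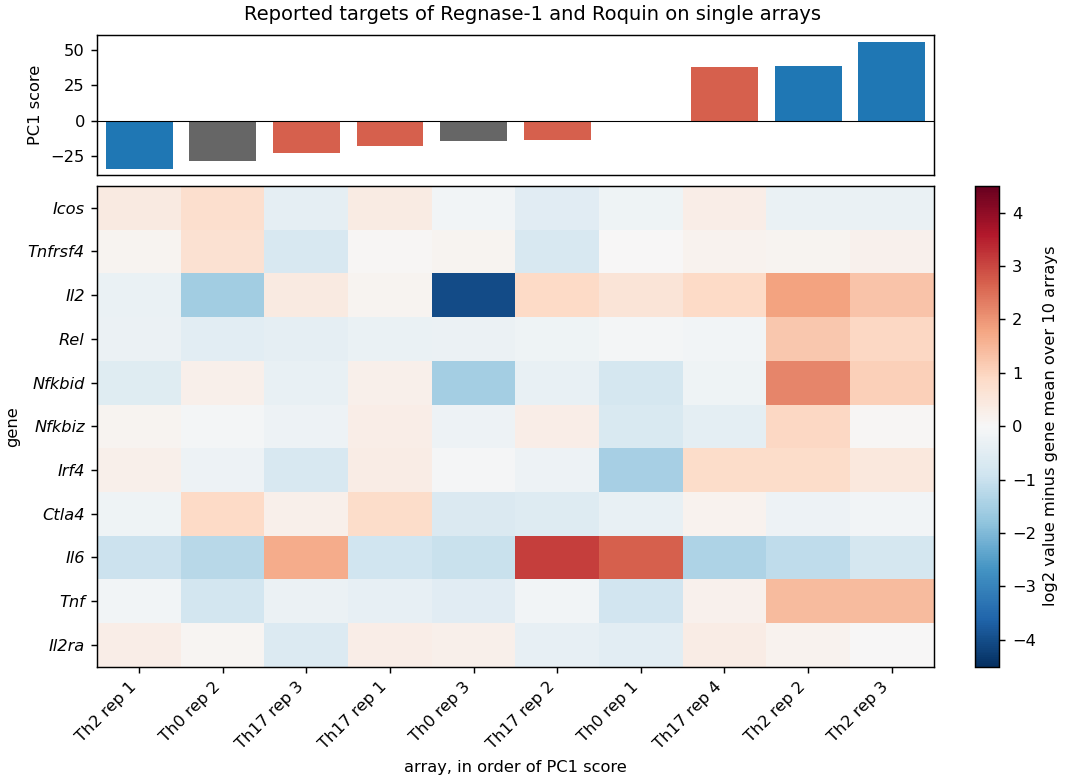
Top, score of each array on the first principal component, with bars grey for Th0, blue for Th2 and red for Th17; bottom, log2 value of 11 reported targets of Regnase-1 and Roquin minus the gene's mean over the 10 arrays (colour scale). Tnf (10.35 on both) and Rel (8.97 and 8.69) are high on Th2 replicates 2 and 3, and Il2 is at its lowest, 5.24, on Th0 replicate 3.

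Il2, the growth factor gene of activated T cells, spread widely among the controls, with 9.86, 7.71 and 5.24 on the Th0 arrays. It was 8.97, 11.08 and 10.56 in Th2 and 9.41 to 10.17 in Th17. Th0 replicate 1 overlapped both polarised groups. The differences from Th0 were 2.60 in Th2 and 2.26 in Th17 (adjusted p 0.767 and 0.879 by limma), and the first was 1.37 without the arrays apart. Of 13 targets reported for the ZFP36 family, 3 also stand in the first list. At an unadjusted p under 0.05, 2 were higher in Th2 and 2 in Th17 than in Th0, with medians of 0.52 and 0.47. Of all genes, 6.34% and 5.17% passed that p in either direction. Without the arrays apart the medians were -0.58 and 0.47. Without those with the most basophil and mast cell marker signal, 3 were higher in each comparison, with medians of 1.04 and 0.78. The shares of all genes were then 3.33% and 3.36% in either direction. In Th17 against Th2, 3 were lower, beside 6.25% of all genes in either direction, with a median of 0.20. Among the 3 was Il3 (difference -2.81, adjusted p 0.672 by limma). Without the arrays apart the median was 0.87 and Il3 differed by -1.19. Without those with the most basophil and mast cell marker signal, 2 were higher and 0 lower, with a median of -0.17 (3.64% of all genes in either direction).

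Among genes around MALT1, 1 of 7 was higher at an unadjusted p under 0.05 in each comparison with Th0. The share of all genes was 6.34% for Th2 and 5.17% for Th17, in either direction. In Th17 against Th2, 1 was lower, beside 6.25% of all genes. Tnfaip3, a MALT1 substrate, measured 6.54, 7.13 and 6.47 in Th0, 6.85, 8.03 and 7.18 in Th2, and 8.05, 7.41, 7.48 and 7.76 in Th17. All Th17 arrays were above the Th0 arrays (difference 0.96, SE 0.28, adjusted p 0.626 by limma). Relb, the gene of an NF-κB subunit that MALT1 cleaves, differed by 0.65 between Th2 and Th0 and differed by -0.44 between Th17 and Th2 (adjusted p 0.767 and 0.771 by limma), and by 0.33 and -0.18 without the arrays apart. Bcl10, the adaptor that binds MALT1, differed by 0.25 between Th17 and Th0 (SE 0.20, adjusted p 0.999 by limma).

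Of 5 relatives of the members, N4bp1 and Zc3h12c were higher in Th17 than in Th2 at an unadjusted p under 0.05. The share of all genes was 6.25% in either direction. Zc3h12c also passed in Th17 against Th0 (limma p 0.0116), beside 5.17% of all genes. In Th2 against Th0, 0 passed, beside 6.34%. N4bp1, which encodes a ribonuclease related to Regnase that MALT1 also cleaves, measured 6.52, 7.64 and 6.60 in Th0, 7.39, 5.76 and 5.81 in Th2, and 7.76, 7.90, 7.52 and 7.45 in Th17. Its lowest values were on Th2 replicates 2 and 3, as for Zc3h12d, but Th17 replicate 4 was not low. Th17 minus Th2 was 1.34 (adjusted p 0.520 by limma), and 1.87 without Th2 replicate 1 (adjusted p 0.0214 by limma). The latter leaves only arrays apart in Th2, and 298 genes were then called instead of 17. Without the 3 arrays apart Th17 minus Th2 was 0.34. Zc3h12c, the Regnase-3 gene, had a Th17 mean 0.90 above those of Th0 and Th2 (adjusted p 0.783 and 0.615 by limma), and 0.80 and 1.46 without the arrays apart.

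A list of CCR4-NOT subunits, BTG and TOB proteins and other deadenylases had 16 measured genes. At an unadjusted p under 0.05, 3 were higher in Th2 (Tob1, Btg1 and Cnot11) and 1 in Th17 (Btg1) than in Th0. The shares of all genes were 6.34% and 5.17% in either direction, and the list medians 0.17 and 0.12. In Th17 against Th2, 0 passed that p. Without the arrays with the most basophil and mast cell marker signal, 0 were higher in either comparison with Th0, with medians of 0.098 and -0.065. Without the arrays apart the medians were 0.28 and 0.13. Btg1, whose protein recruits CCR4-NOT and helps keep T cells quiescent, measured 7.02, 8.05 and 7.21 in Th0, 7.75, 8.84 and 8.50 in Th2, and 8.47, 8.89, 8.60 and 8.38 in Th17. All Th17 arrays exceeded the Th0 arrays. The differences from Th0 were 1.16 in Th17 (SE 0.29, limma p 0.0022, adjusted p 0.433) and 0.94 in Th2 (adjusted p 0.767 by limma). They were 1.23 and 0.33 without the arrays apart. Tob1, of the same family, had a Th2 mean 0.86 above that of Th0 (adjusted p 0.767 by limma).

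Few genes of the general decay machinery reached an unadjusted p under 0.05. Of 16 decapping genes, 1 was lower in Th2 (Dcps, -1.08) and 2 were lower in Th17 (Lsm3, -0.46, and Lsm2, -0.44) than in Th0, and 1 was lower in Th17 than in Th2 (Lsm2, -0.63). The medians lay between -0.17 and 0.00. Without the arrays apart they were 0.24 for Th2 and -0.087 for Th17 against Th0. Without those with the most basophil and mast cell marker signal they were -0.082 and -0.21. Dcps differed by -0.014 without the arrays apart, and Lsm2 in Th17 minus Th0 by -0.17 without those with the most basophil and mast cell marker signal. Of 13 exosome and SKI genes, 2 were lower in Th17 than in Th2 (Exosc10, -0.45, and Dis3, -0.57) and 0 passed in either comparison with Th0. These differences were -0.31 and -0.016 without the arrays apart. Of 7 nonsense-mediated decay genes and of 8 kinase and phosphatase genes upstream of the members, 0 passed an unadjusted p of 0.05 in any comparison. Arid5a, whose protein protects cytokine mRNAs from Regnase-1, was the 1 gene of 8 other AU-rich and stem-loop binding proteins to do so. It measured 4.03, 5.52 and 5.55 in Th0, 6.29, 4.52 and 3.96 in Th2, and 6.97, 6.34, 6.40 and 5.84 in Th17. All Th17 arrays exceeded the Th0 arrays (difference 1.35, adjusted p 0.901 by limma), and Th17 minus Th2 was 1.46 (adjusted p 0.673 by limma). Without Th2 replicate 1, which leaves only arrays apart in Th2, Th17 minus Th2 was 2.15 (adjusted p 0.0432 by limma). In that setting 298 genes were called instead of 17. Without the arrays apart Th17 minus Th2 was 0.28 (limma p 0.628), and without the arrays with the most basophil and mast cell marker signal Th17 minus Th0 was 0.86.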

How the data were processed

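mRNA was measured in 10 samples with 1 array each, grouped by the sample titles as Th0, Th2 and Th17. The log2 values were computed by the authors with RMA in Affymetrix Expression Console 1.3.0.187, per the submitters' processing notes. Their quantile normalization hides changes in total RNA per cell. The labels used here name no genome build for the annotation.

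Of 41345 probe sets, 23521 had 1 symbol in the probe table, 1814 had several and 16010 were not in it. The first were used, with the highest mean per gene (1082 genes had several), without a filter on low values. Other genes were not analysed here. All arrays and genes entered 1 model of 3 group means in limma 3.58.1 (R 4.3.3), with lmFit and eBayes and 7 residual degrees of freedom. Two-sided p-values were adjusted over 22180 genes (Benjamini-Hochberg), and a gene was called under 0.05. Errors are SDs over arrays or SEs of the moderated fit, and the number of arrays limits the precision. The procedure was tested on simulated data.

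Text names all members, the genes of each list with the smallest p in a comparison, and the 3 genes most like each member by Pearson's r over 10 arrays. Other genes were chosen after their values were seen. Members and lists were chosen with earlier results of these data known. Alternatives were quantile normalization, median centring, the mean of probe sets, a filter at a mean of 5, eBayes with trend and robust settings, array weights, only the 2 groups compared, a replicate block and leaving out each array.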

Additional observations from a re-analysis of the deposited data

Results flagged for a closer look

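In groups of 4 arrays, an array was singled out where its gap to the nearest other was a larger share of the group's range than Dixon's 95% critical value, which chance gives in about 1 in 20 groups. Of the 48 named or member genes examined in Th17, 5 met it, 2 of them members. Zfp36 was 8.08 on Th17 replicate 4 and 9.28 on the next lowest array. Zfp36l2 was 6.40 on the same array and 7.42 on the next. Prkcq, the gene of a kinase of T cell receptor signalling, was 6.74 there and 8.58 on the next, and Upf2, a nonsense-mediated decay gene, was 5.29 and 6.36. Th17 replicate 4 is 1 of the 3 arrays apart on the first principal component. Dusp1, the gene of a phosphatase of p38 kinase, was 6.88 on Th17 replicate 1 and 6.29 on the next highest array. Th17 replicate 1 had the highest myeloid marker mean of all arrays.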

How the results depend on the processing

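Of 480 member differences under 21 alternatives, 454 kept their direction and side of the threshold, 24 changed sign and 2 passed the threshold. Quantile normalization and median centring turned no member's sign. Leaving out 1 array, the count of members called in Th2 minus Th0 ranged from 0 to 1 (Rc3h1 without Th2 replicate 1), and with array weights it was 1 in Th17 minus Th2 (Zc3h12d). Pairs of members that passed numbered 0 with 2 arrays left out, a test over 5 arrays that can hardly pass the adjustment. Leaving out 1 array, these differences changed sign: Rc3h2 (-0.061 to 0.13) in Th2 minus Th0, Zfp36l1 (-0.028 to 0.57) and Smg5 (-0.13 to 0.39) in Th17 minus Th0, and Zc3h12a (-0.15 to 0.26), Zfp36 (-0.30 to 0.22), Zfp36l2 (-0.27 to 0.20) and Ikbkb (-0.0082 to 0.69) in Th17 minus Th2. Array weights gave -0.20 for Zc3h12a and 0.028 for Zfp36l2 in Th17 minus Th2.

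By the replicate numbers of the titles, correlations of same-numbered arrays ran from -0.31 to 0.30. Here 1 of 10 arrays correlated best with its own number. By the numbers of the descriptions, 2 of 8 pairs were over 0.1, Th2 replicate 3 with Th17 replicate 4 at 0.49. Both of these are arrays apart on the first principal component, and no Th0 array has their number in its description. A pairing by the description numbers was not tested. The replicate block used the title numbers, which gives Th17 replicate 4 no weight. With it 0 members were called, and genes called numbered 0, 8 and 11 against 0, 23 and 17. Zfp36 and Zfp36l2 then turned to 0.22 and 0.20 in Th17 minus Th2.

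Without the 3 arrays apart, Th2 minus Th0 was 0.030 for Zc3h12d, -0.027 for Rc3h2, -0.12 for Malt1, 0.47 for N4bp1 and 0.36 for Ikbke. Th17 minus Th2 was then 0.27 for Rc3h1, 0.61 for Zfp36, 0.26 for Zfp36l1, -0.19 for Prkcq, -0.011 for Tia1 and 0.15 for Dusp1. The lone Th2 array was assumed to vary like the other groups. Without the 3 arrays with the most basophil and mast cell marker signal, Rc3h2 was -0.035 in Th2 minus Th0, and Th17 minus Th0 was -0.077 for Zc3h12d, -0.20 for Zfp36l1, -0.12 for Zfp36l2, -0.17 for Smg5 and -0.18 for Smg1. The cause of these changes was not tested.

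Genes called in Th2 minus Th0 numbered 0, and up to 431 without Th2 replicate 1. In Th17 minus Th0 they numbered 23, and from 2 to 60 under the alternatives, and in Th17 minus Th2 they numbered 17, and from 3 to 330. Zc3h12a, with a mean of 4.89, had no value under the filter at 5.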
